A study of Caenorhabditis elegans with 2 samples.

Results

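The autophagy genes of Caenorhabditis elegans were read against a map of where the transcription factor PQM-1 sat on the genome. They are the protein-coding genes whose symbols start with atg-, epg- or lgg-, together with bec-1, unc-51, sqst-1 and vps-34. The Ensembl annotation of assembly WBcel235 holds 27 such genes among 19973 protein-coding genes on the 6 nuclear chromosomes, and every symbol named singly was found. The rule uses names and no peak.

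The map was made by ChIP-seq, in which DNA held by a tagged protein is pulled down and sequenced. The material was whole larvae of the L3 stage, males and females pooled. All worms were of strain OP201, which carries the unc-119(tm4063) allele on chromosome III and the transgene wgIs201 with eGFP-tagged pqm-1. There was 1 group with 2 biological replicates and no second condition, so nothing here is a response to a treatment. Whole worms were used, and the tissue in which a site was occupied cannot be told from these lists. Peak lists hold no reads, so depth is unknown. A gene is called bound when a peak of the authors' optimal list has its summit in the promoter. Distances are counted from the gene's 5' end, with upstream negative, and the promoter spans 1000 bp before that end and 250 bp after it. Signal is the score that the authors gave each peak, on a scale that is not stated, and rank 1 is the strongest of the 5560 optimal peaks. Longer lists, pooled or for each replicate, are called relaxed here. The pooled relaxed list holds background as well as peaks, per its label.

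In autophagy a membrane grows around a portion of cytoplasm, closes into an autophagosome and fuses with a lysosome, where the content is broken down. A kinase complex built on UNC-51 starts the process, a lipid kinase complex with VPS-34 and BEC-1 marks the membrane, and conjugation enzymes couple the small proteins LGG-1 and LGG-2 to it. In worms autophagy clears protein granules from embryos and is needed for the long life of animals with reduced insulin signalling. PQM-1 is a zinc finger factor known as a counterpart of DAF-16 in that same signalling pathway, and the heptamer TGATAAG is the site linked with it.

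Of the 27 autophagy genes, 10 were bound (37%), against 3260 of all 19973 genes (16.3%). The bound genes were lgg-2, lgg-1, epg-7, epg-5, atg-18, epg-4, bec-1, epg-8, atg-16.1 and atg-9. Most of their peaks were weak: 7 of the 10 ranked outside the strongest 2780. The count differed between the replicates. With the strongest 5560 peaks of replicate 1 alone, 9 of 27 genes were bound (33.3%, against 16.6% of all genes), and with those of replicate 2 alone, 5 of 27 were (18.5%, against 13.8% of all genes). The last share is near that of all genes.

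**Figure D1:**
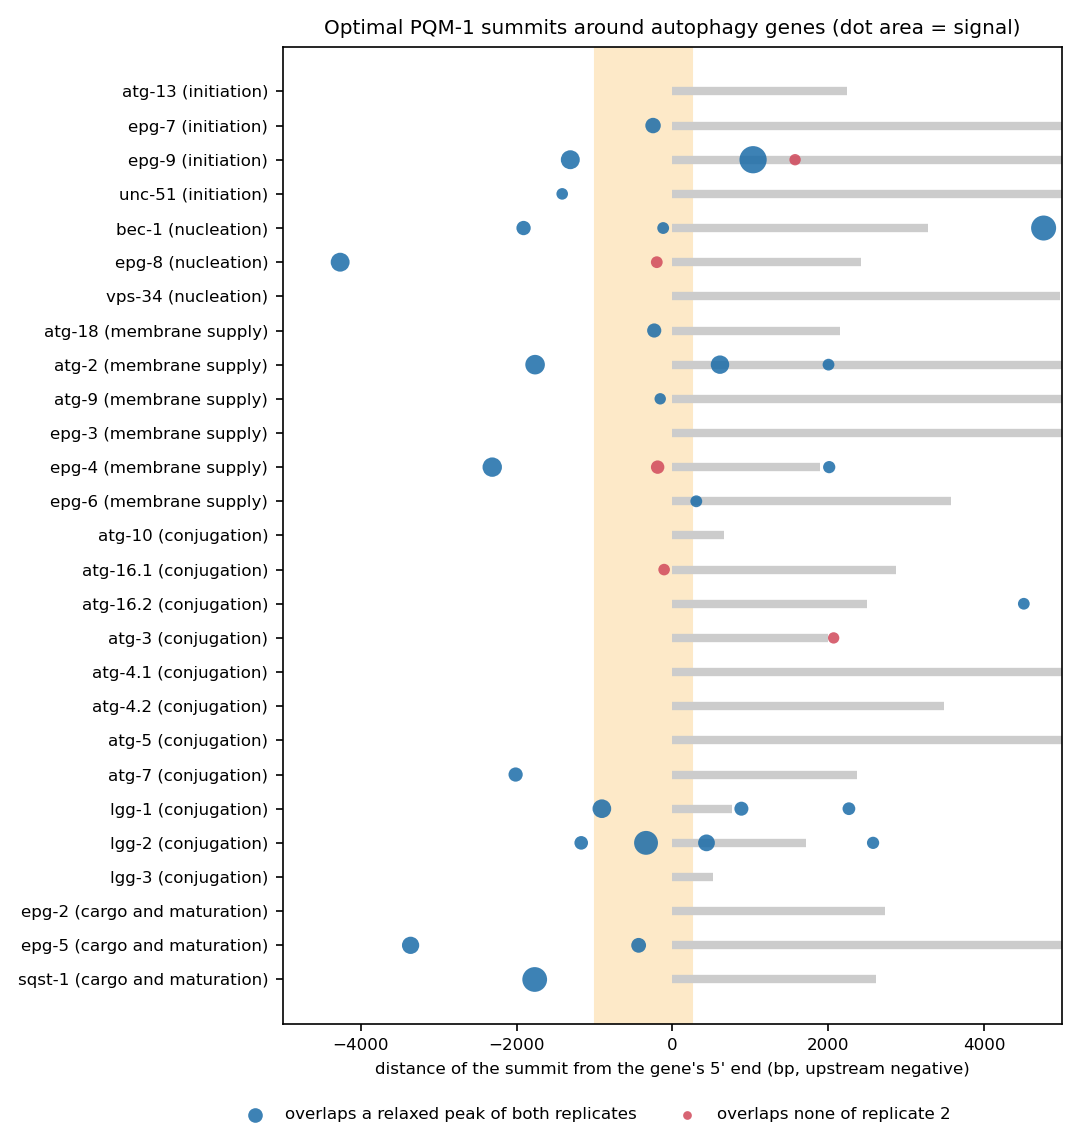
Optimal PQM-1 summits within 5000 bp of the 5' end of each of the 27 autophagy genes, listed by role. The x axis is the distance in bp, dot area is proportional to signal, grey bars are gene bodies and the shaded band is the promoter. Blue summits overlap a relaxed peak of both replicates and red ones overlap none of replicate 2. The 10 promoter summits all lie upstream of the 5' end, and the largest dots are those inside epg-9, inside skn-1 beside bec-1, upstream of sqst-1 and at lgg-2.

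The DNA under the summits is shown first for the genes on which the account turns. Each stretch reaches 50 bases to either side of a summit in ce11, read 5' to 3' on the strand of the gene. Capitals mark any motif searched, on both strands. The motifs were the PQM-1 heptamer TGATAAG, the GATA factor site AGATAA, the DAF-16 site GTAAACA, the E-box CACGTG, which is the kind of site that the TFEB homologue HLH-30 binds, the repeat GAGAGAG, the shared core GATAA and the word CTGCGTCTC. The core lies within the heptamer and within the GATA factor site, and the last 2 of the list were added after the data were seen, CTGCGTCTC after reading the epg-9 sequences. The promoter peaks of lgg-2 and lgg-1 were the strongest of the group, and the windows held none of these motifs. They lie at chrIV:10936192-10936292 and chrII:6348575-6348675, both on the minus strand.
lgg-2: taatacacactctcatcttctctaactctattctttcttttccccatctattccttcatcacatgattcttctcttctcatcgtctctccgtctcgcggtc
lgg-1: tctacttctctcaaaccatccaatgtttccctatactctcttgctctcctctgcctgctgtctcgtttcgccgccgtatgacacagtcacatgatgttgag
Among the summit windows of the 10 bound promoters, only that of epg-5 (chrII:6609749-6609849, minus strand) held TGATAAG, seen here as CTTATCA. Only that of atg-9 (chrV:349178-349278, plus strand) held CACGTG.
epg-5: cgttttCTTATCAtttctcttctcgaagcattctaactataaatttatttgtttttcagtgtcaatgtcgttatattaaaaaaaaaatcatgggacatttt
atg-9: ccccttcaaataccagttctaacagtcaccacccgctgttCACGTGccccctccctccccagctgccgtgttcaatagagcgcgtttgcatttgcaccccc
Strong peaks close to unbound members, chosen after their values were seen, are shown for epg-9 in an intron (chrIV:2602126-2602226) and upstream (chrIV:2599780-2599880), and for sqst-1 upstream (chrIV:12032464-12032564), all on the plus strand.
epg-9 inside: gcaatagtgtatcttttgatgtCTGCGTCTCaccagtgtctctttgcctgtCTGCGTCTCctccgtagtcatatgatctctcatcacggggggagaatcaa
epg-9 upstream: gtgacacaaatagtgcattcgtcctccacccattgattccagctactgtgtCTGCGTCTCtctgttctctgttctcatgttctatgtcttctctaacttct
sqst-1 upstream: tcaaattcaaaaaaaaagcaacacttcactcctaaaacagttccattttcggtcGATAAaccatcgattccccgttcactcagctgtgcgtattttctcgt

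Of the 4 members that start autophagy, 1 was bound. This was epg-7, which encodes a scaffold protein, with a summit at -249 bp (chrX:7334295-7334634). Its signal was 46.0 (rank 2538), and the overlapping relaxed peaks had signals of 34.7 in replicate 1 and 12.1 in replicate 2. The kinase gene unc-51 had no promoter peak in the optimal or the pooled relaxed list, and its nearest optimal summit was at -1415 bp (signal 25.9, rank 5153). The gene of its partner atg-13 had a pooled relaxed peak at -109 bp with a signal of 14.4, below the 23.8 at which the optimal list ends.

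The other unbound gene of this step, epg-9, encodes the worm form of the kinase complex subunit Atg101 and lay next to the strongest optimal peak within 5000 bp of any of the 27 genes. The summit was at 1035 bp, in an intron of epg-9 (chrIV:2602057-2602231), with a signal of 142.4 and rank 141. Its signals in the replicates were 108.2 in replicate 1 and 32.7 in replicate 2. Another optimal summit lay at -1311 bp (signal 68.9, rank 1277), so that the promoter as defined here, which held no peak even in the pooled relaxed list, had strong peaks on both sides. A weaker summit at 1574 bp (signal 24.9, rank 5347) had no overlapping peak in replicate 2. It lay at -529 bp from a further annotated transcript start, 2103 bp into the gene. When the 5' ends of all transcripts were counted, epg-9 was bound, as were 13 of 27 members (48.1%, against 17.7% of all genes).

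In the lipid kinase complex, 2 of 3 genes were bound and both peaks were weak. The bec-1 gene, which encodes the Beclin homologue, had its summit at -119 bp (chrIV:5664374-5664713), with a signal of 26.96 and rank 4961. The overlapping signals were 16.9 in replicate 1 and 7.38 in replicate 2, and with either replicate left out bec-1 was no longer bound. The epg-8 gene, which encodes the Atg14 homologue, had its summit at -201 bp (chrI:9934321-9934660), with a signal of 26.7 and rank 5022. Its peak had a signal of 28.7 in replicate 1 and met no peak of replicate 2, whose closest relaxed promoter peak was weak, at 4.76. The catalytic subunit gene vps-34 had no promoter peak in the pooled relaxed list and its nearest optimal summit was 6156 bp away, nearest to the 5' end of C27A12.4.

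Around bec-1 the stronger peaks lay outside the promoter. One summit at -1911 bp had a signal of 39.4 (rank 3220), and one at 4764 bp, within an intron of the neighbouring gene skn-1, had a signal of 120.3 (rank 264) and held TGATAAG. Upstream of epg-8 a summit at -4265 bp had a signal of 68.7 and also held TGATAAG, but lay at -254 bp from mekk-3, the nearest 5' end.

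Of the 6 genes that supply membrane and lipid or read the lipid mark, 3 were bound. The atg-18 gene, whose product binds the lipid made by VPS-34, had its summit at -234 bp (chrV:8631391-8631730). Its signal was 38.6 (rank 3315), with 33.2 in replicate 1 and 7.09 in replicate 2. The related gene epg-6 was not bound: its nearest summit was at 306 bp, in an intron and just past the promoter limit, with a signal of 26.98 (rank 4954). It was bound with all transcript 5' ends, and also when any overlap of a peak with the promoter was counted, which gave 11 of 27 members (40.7%, against 17.4% of all genes). The summit lies at -226 bp from a further annotated start 532 bp into epg-6.

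The atg-9 gene, which encodes the membrane protein of the autophagy vesicles, had the weakest promoter peak of the 10. The summit was at -157 bp (chrV:349058-349397), with a signal of 25.1 and rank 5315. The overlapping signals were 18.1 in replicate 1 and 7.71 in replicate 2. The epg-4 gene, homologous to human EI24, had its summit at -190 bp (chrIII:7181807-7182146, signal 34.7, rank 3759). The signal was 34.6 in replicate 1, and no peak of replicate 2 lay in the epg-4 promoter. The epg-3 gene, homologous to human VMP1 and like epg-4 a gene for a membrane protein, had no optimal summit within 5000 bp and a pooled relaxed promoter peak of 7.19.

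The lipid transfer gene atg-2 was flanked by optimal peaks and had none in the promoter. The summit at -1763 bp had a signal of 73.6 (rank 1117), with 62.9 in replicate 1 and 9.46 in replicate 2. The intron summit at 610 bp (chrX:6807203-6807542) had a signal of 65.3 (rank 1422), with 38.8 in replicate 1 and 26.1 in replicate 2. Replicate 1 ranked the upstream peak above the intron peak in signal, and replicate 2 the other way round. Another summit at 2003 bp (signal 26.7) lay at -329 bp from an annotated internal start 2332 bp into atg-2.

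Of the 11 conjugation genes, 3 were bound. The ubiquitin-like protein genes lgg-1 and lgg-2, whose products are coupled to the membrane and mark autophagosomes, had the strongest promoter peaks of the 27 genes. The lgg-2 summit was at -339 bp (chrIV:10936072-10936411), with a signal of 109.5 and rank 374. It had signals of 91.6 in replicate 1 and 18.01 in replicate 2, and lgg-2 was bound in each of the 9 other settings tried. The lgg-1 summit was at -906 bp (chrII:6348455-6348794), with a signal of 66.9 and rank 1354, and 48.2 in replicate 1 and 14.2 in replicate 2. The strongest replicate 2 peak in the lgg-1 promoter was another one, with a signal of 15.6 and rank 1978 in that list. The optimal summit lay near the far edge of the promoter, and with a promoter of 500 bp before and 100 bp after the 5' end lgg-1 was not bound, which left 9 of 27 members (33.3%, against 12.5% of all genes). Closer to lgg-1, at -255 bp, a pooled relaxed peak had a signal of 23.6 and rank 5607 in that list, below the 23.8 at which the optimal list ends. The third ubiquitin-like gene, lgg-3, which encodes the Atg12 homologue, was not bound and had a pooled relaxed peak of 15.5 at -525 bp.

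The region around lgg-2 held 4 optimal summits within 5000 bp, more than any other of the 27 genes. Besides the promoter peak they were at 437 bp, in an intron (signal 54.0), at -1171 bp, nearest to fic-1 (35.6), and at 2575 bp, nearest to dnc-1 (28.8). In replicate 2 the intron peak had a signal of 4.66, against 51.03 in replicate 1. The intron summit lies at -427 bp from an annotated internal start of lgg-2, 864 bp into the gene.

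The atg-16 paralogues differed in their calls, and the atg-4 paralogues did not. The atg-16.1 gene had a summit at -107 bp (chrX:4462402-4462741, signal 25.8, rank 5166), with 25.04 in replicate 1 and no peak of replicate 2 in the promoter. The atg-16.2 gene was not bound, and its pooled relaxed promoter peak had a signal of 9.23. The atg-16.1 signal is close to 23.8, the lowest of the optimal list. Neither atg-4.1 nor atg-4.2, the genes of the proteases that trim LGG-1, was bound: atg-4.1 had pooled relaxed promoter peaks of up to 6.999, and atg-4.2 had none.

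The remaining conjugation enzymes were unbound. The gene of the activating enzyme, atg-7, came nearest, with a pooled relaxed promoter peak of 18.9 at -930 bp. It was bound without replicate 1, where its promoter peak ranked 5229 with a signal of 8.31. The genes of the conjugating enzymes, atg-3 and atg-10, had pooled relaxed promoter peaks of 5.96 and 5.46. The atg-5 gene had none, and its nearest optimal summit was 7972 bp away.

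Of the genes for cargo handling and fusion, 1 of 3 was bound. The epg-5 gene encodes a tether that joins autophagosomes to late endosomes and lysosomes, and its summit was at -434 bp (chrII:6609629-6609968, signal 42.2, rank 2933). The signals were 33.3 in replicate 1 and 10.9 in replicate 2. A stronger summit lay at -3361 bp (signal 57.2), and epg-5 was the gene nearest to both. The cargo receptor gene sqst-1, the worm p62, had a pooled relaxed promoter peak of 9.01, but at -1768 bp stood an optimal peak with a signal of 117.7 and rank 291. That peak (chrIV:12032503-12032592) had signals of 80.4 in replicate 1 and 39.5 in replicate 2. The nearest 5' end was that of mrpl-51, from which the summit lay 1190 bp downstream, outside any protein-coding gene. The epg-2 gene, which encodes an adaptor for granule removal in embryos, had no promoter peak in the pooled relaxed list.

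The 10 promoter peaks were set beside those of all bound genes. Both were called with the same promoter window, most of which lies upstream, so position is partly set by the call. All 10 summits lay upstream of the 5' end, against 92.1% of the strongest promoter summits of all bound genes, and 9 of 10 lay within 500 bp upstream, against 69.8%. Their median distance was -217.5 bp, against -211.5 bp for all bound genes. None of the 10 peaks served the promoter of another protein-coding gene, against 38.7% of all bound genes that shared their peak with another promoter. Each of the 10 summits was in intergenic sequence, outside all protein-coding genes, but the like share of all bound genes was not counted. With 10 genes, these shares are a description of the group.

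In signal the group stood low. The median of the 10 was 36.7, with a range of 25.1 to 109.5, against a median of 43.7 for all 3260 bound genes. Of the 10, 1 ranked among the strongest 1000 peaks (10%), against 17.6% of all bound genes. Of the bound autophagy genes, 70% ranked outside the strongest 2780, against 49.8% of all bound genes.

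**Figure D2:**
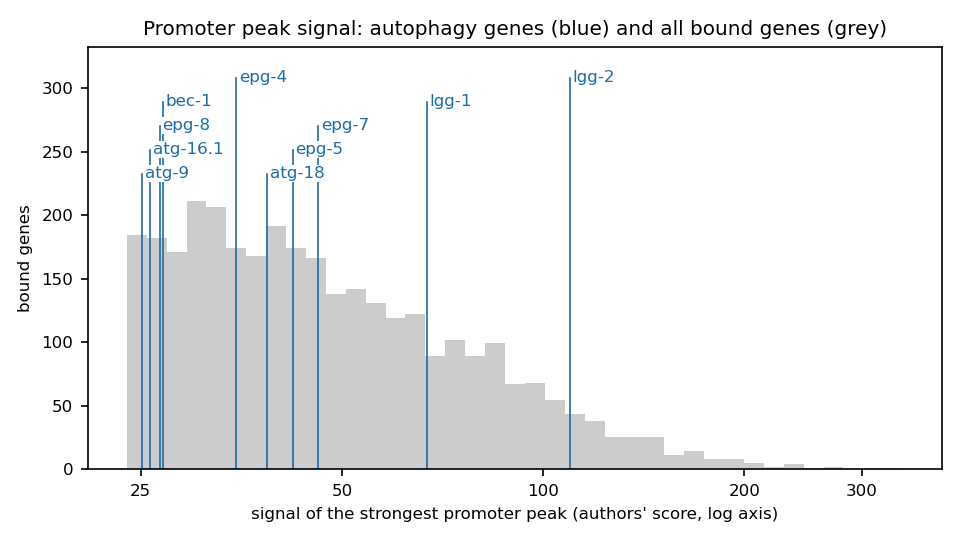
Signal of the strongest promoter peak of the 10 bound autophagy genes (blue lines with names) and of all 3260 bound genes (grey histogram), on a log axis. The members atg-9, atg-16.1, epg-8 and bec-1 lie between 25.1 and 26.96, close to the left end, and lgg-2 stands alone above 100.

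The replicates were compared for each of these peaks. All 10 overlapped a relaxed peak of replicate 1, and 7 overlapped one of replicate 2, against 92.1% of all bound genes for replicate 2. The exceptions were epg-4, epg-8 and atg-16.1. Of all bound genes outside the strongest 2780 peaks, 85.3% had an overlapping peak there, and of the autophagy genes so ranked, 4 of 7 did. When each replicate was cut to its strongest 5560 peaks, 4 of the 10 peaks overlapped both, at lgg-2, lgg-1, epg-7 and epg-5. The like share of all bound genes was not counted under this cut. Across the 7 peaks seen in both, the order of the signals was much the same (Spearman rho 0.893, n = 7, across peaks that share libraries). The value was 0.539 across 2432 promoter peaks of all genes. Both values leave out peaks missing from a replicate. Among these are epg-4, epg-8 and atg-16.1, whose signals in replicate 1 were 34.6, 28.7 and 25.04.

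**Figure D3:**
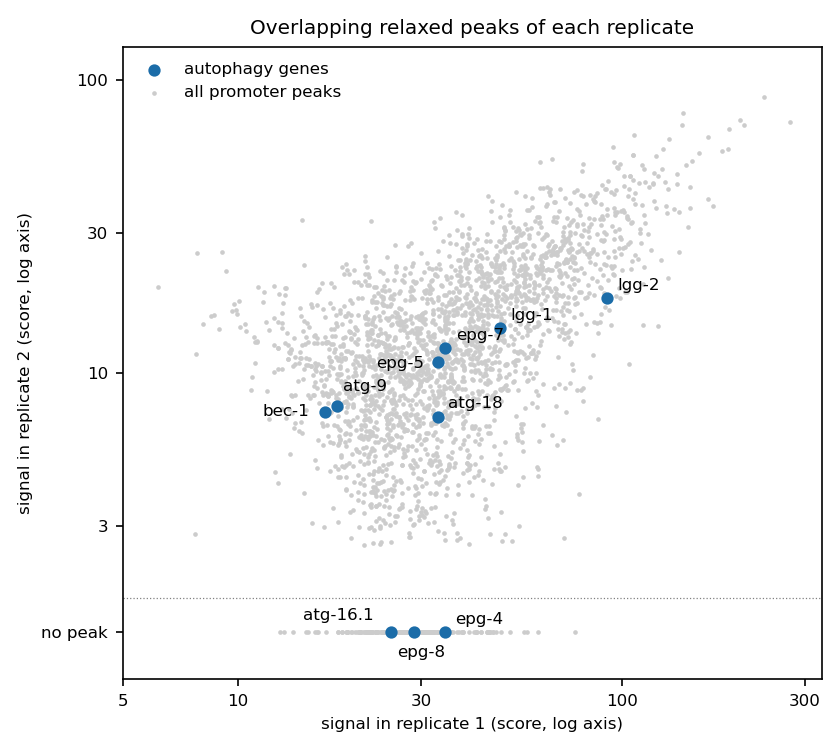
Signal of the overlapping relaxed peak in replicate 1 (x axis) and replicate 2 (y axis), both log, for the promoter peaks of the 10 bound autophagy genes (blue) and for all distinct promoter peaks (grey). Points below the dotted line had no overlapping peak in replicate 2, and epg-4, epg-8 and atg-16.1 are among them.

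Motifs were counted at the 10 summits, and with 10 peaks the counts are a description. TGATAAG was within 50 bp of 1 of the 10 (epg-5, 41 bp upstream of the summit), against 21.8% of the 2618 distinct promoter peaks of all bound genes and 2.29% of windows 500 bp to either side of these. Among bound genes outside the strongest 2780 peaks 14.7% held it. CACGTG was at 1 of the 10 (atg-9, 7 bp upstream of the summit), against 3.97% of promoter peaks and 1.68% of flanks. The GATA factor site, the DAF-16 site and the repeat were at none of the 10, against 11.2%, 3.63% and 7.91% of promoter peaks. The core GATAA was at 3 of 10 (epg-5, bec-1 and atg-16.1), against 50.6% of promoter peaks. In flanking windows it was at 6 of the members' 20 (30%), against 23.9% for all promoter peaks. The GATA factor site was at 3 of these 20 flanks (15%, against 5.65%) and TGATAAG at 1 (5%, against 2.29%). The 10 summit windows had a median GC content of 43.6%, against 39.6% for all distinct promoter peaks. The part of base content in these counts was not tested. The letters were present elsewhere in the promoters: over the whole promoter 6 of 27 members held TGATAAG (22.2%, against 24.2% of all promoters), and 7 of 27 held CACGTG (25.9%, against 19.1%). Of the bound members, 2 held TGATAAG there (epg-5 and epg-8) and 3 held CACGTG (atg-9, epg-5 and epg-7).

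The word CTGCGTCTC stands in the sequences above at both strong epg-9 peaks, with 2 copies in the intron. It was within 50 bp of 5.14% of all optimal summits and of 0.531% of flanking windows. None of the 10 promoter summits held it, against 6.38% of the distinct promoter peaks of all bound genes. Among optimal summits within 5000 bp of a member, those near lgg-2 at -1171 bp and near epg-4 at 2012 bp also held it. So did the promoter summit of the partner gene pha-4. Since it was picked from the epg-9 sequences, its presence there is a description.

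The 17 unbound members lay nearer to optimal summits than other unbound genes, though most were not close to one. A pooled relaxed peak was in the promoter of 11 of them (64.7%), against 34.4% of the 16713 unbound genes of the genome, with signals from 4.79 (epg-6) to 18.9 (atg-7). Since that list also holds background, such entries may not be binding sites. An optimal summit lay within 2000 bp of the 5' end of 5 of them (29.4%), against 9.43% of all unbound genes, and for 9 of them (52.9%, against 70.5%) the nearest one was beyond 5000 bp. The median distance to the nearest optimal summit was 5078 bp, against 9392 bp. Optimal summits lay in the gene bodies of 3 of the 17 (17.6%), namely epg-6, epg-9 and atg-2, against 4.90%. The unbound members had a median length of 3482 bp, against 2027 bp for all genes, and the part of length in the gene-body share was not tested.

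Several members start just behind another gene on the same strand. In 7 of the 27 the nearest upstream protein-coding gene was on the same strand and ended within 500 bp. Of these 7, 3 were bound (epg-4, atg-18 and epg-8), and atg-7, vps-34, atg-4.2 and atg-10 were not. Of the other 20 members 7 were bound (35%). Over all genes, 11.7% of those so placed and 17.3% of the others were bound. The gap upstream of atg-7 was 30 bp, behind let-70.

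The neighbouring steps of the pathway were read from a list of 44 partner genes, of which 10 were bound (22.7%, against 16.3% of all genes). Of 9 genes of upstream signalling, rheb-1, a GTPase that activates the kinase TOR, had a summit at -350 bp with a signal of 127.5 (rank 219), above the promoter peak of every autophagy gene, and shared it with spk-1. The other bound gene of that group, daf-15, which encodes the TOR partner Raptor, had a signal of 24.7 and no overlapping peak in replicate 2. Among 6 transcription factor genes, pha-4 (signal 59.0) and mxl-3 (52.9) were bound. The gene of the TFEB homologue, hlh-30, was not bound.

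Of 12 fusion genes, rab-7 (36.0) and rab-1 (35.4), for small GTPases of membrane traffic, were bound. Of 9 cargo and receptor genes, pdr-1, the parkin homologue (34.7), and allo-1, a receptor for the removal of paternal mitochondria (28.3, with no overlapping peak in replicate 2), were bound. Of 4 lysosome genes, lmp-1 (56.0) and scav-3 (36.3), both for lysosomal membrane proteins, were bound, and of 4 lipid kinase partners and phosphatases, none was. In 5 of the 10 bound partners the peak was shared with the promoter of another gene, which was so for none of the autophagy genes. With either replicate left out, 11 of the 44 partners were bound (25%), against 13.8% of all genes without replicate 1 and 16.6% without replicate 2. The vacuolar proton pump genes, named vha-, which acidify the lysosome where autophagy ends, are not in the list of 44 partners. Of the vha- genes, 11 of 20 were bound (55%, against 16.3% of all genes), and they were not counted under the other settings.

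**Figure D4:**
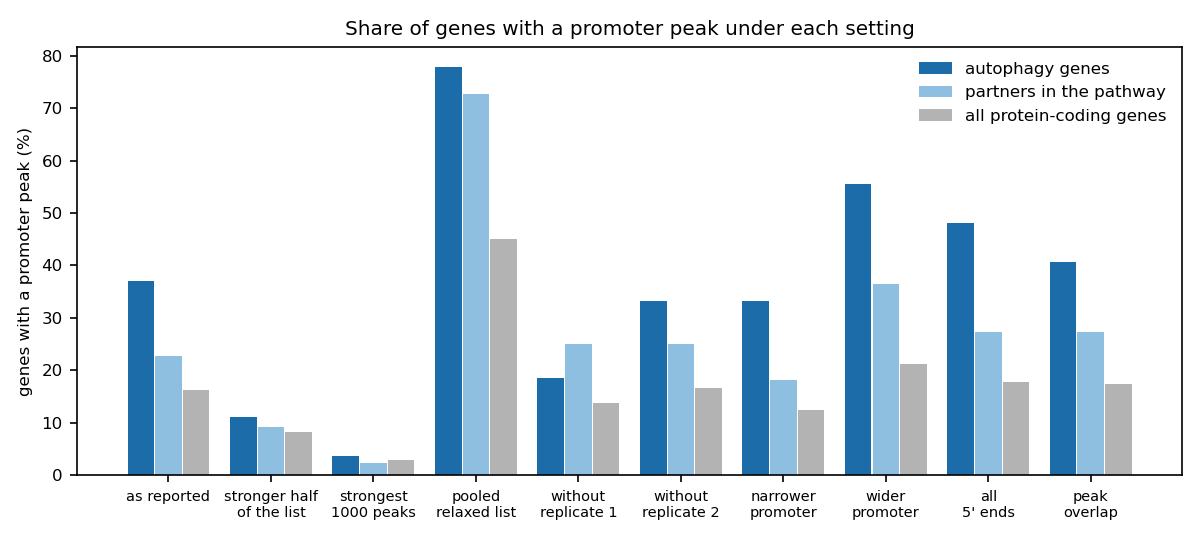
Percent of the 27 autophagy genes, of the 44 partners and of all 19973 protein-coding genes with a promoter peak, as reported and under 9 other settings. The autophagy share is above that of all genes in each setting, but close to it in the strongest 2780 peaks (11.1% against 8.19%), in the strongest 1000 peaks (3.70% against 2.88%) and without replicate 1 (18.5% against 13.8%).

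The share was also read at other thresholds. In the strongest 2780 peaks 3 of 27 autophagy genes were bound (lgg-2, lgg-1 and epg-7), which is 11.1% against 8.19% of all genes. In the strongest 1000 peaks it was lgg-2 alone (3.70%, against 2.88%). In the pooled relaxed list, which by its label includes background, 21 of 27 had an entry in the promoter (77.8%, against 45.1%). With a promoter of 2000 bp before and 500 bp after the 5' end, 15 of 27 were bound (55.6%, against 21.2%), the added genes being epg-6, epg-9, atg-2, sqst-1 and unc-51.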

How the data were processed

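The members and gene lists were chosen with earlier results of these data known. The authors deposited narrowPeak lists on ce11. Called relaxed here are the list of each replicate (26022 and 30000 peaks) and the pooled list (30000). The label of the pooled list is peaks and background as input for IDR, the irreproducible discovery rate. The pooled list thus holds background as well as peaks. The list thresholded on that rate is labelled optimal (5560). The signal value is a score deposited by the authors, used to rank and describe peaks within a list. Their −log10 q value, also deposited by the authors, was not used, since it is the same for every optimal peak. The summit offset is as deposited. The alignment and peak calling tools, and the value of that threshold, were not given in the sources used here. Not used here were the control library and the ce10 lists.

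Summits were set against the Ensembl 115 annotation of WBcel235, which is ce11, leaving out 12 mitochondrial genes. Sequences are from the RefSeq copy of that assembly. Peaks overlapped with at least 1 bp shared. Counts by role are to be read against the share of all genes given with the main count, and no test of the gene lists was made. Every member and every bound partner is named. Other genes and the epg-9 and sqst-1 sequences were chosen after their values were seen. The code was tested on simulated data with planted summits and motifs. Alternatives were other list lengths, promoter and motif windows, 5' ends, overlap rules, and each replicate left out, that is, the strongest 5560 peaks of the other. Scripts ran in Python 3.11.15 with pandas 2.3.3, and figures were drawn in matplotlib 3.10.9.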

Additional observations from a re-analysis of the deposited data

How the results depend on the processing

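The count of 10 bound autophagy genes became 3 in the strongest 2780 peaks of the optimal list, 1 in its strongest 1000 peaks and 21 in the pooled relaxed list, and ranged from 5 to 9 with a replicate left out. The partner count of 10 became 4, 1 and 32 in those lists, 16 with the wider promoter and 11 without either replicate. The first 3 lists hold fewer or more peaks, and 8.19%, 2.88% and 45.1% of all genes were bound in them, against 16.3% in the full optimal list. The cause of these changes and of the drop to 5 without replicate 1 was not tested. The narrower promoter, the wider promoter, all transcript 5' ends and peak overlap gave 9, 15, 13 and 11 autophagy genes. The 7 peaks seen in both replicates stayed at 7 with 50% of the peak covered or summits within 100 bp, and became 4 within the strongest 5560 peaks of each replicate. TGATAAG was at 1 bound promoter summit, at 0 within 25 bp of summits, and at 1 in each list with a replicate left out. CACGTG was at 1, and with a replicate left out at 0 to 1. No paired analysis was possible because there is 1 group. Depth is unknown, so how far it limits replicate 2 cannot be said.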

Other observations

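Several regulators of autophagy, named after their values were seen, had optimal peaks inside the gene and no optimal peak in the promoter as defined. Every unbound partner with such a peak is named here. Of all unbound genes, 4.90% held an optimal summit in the gene body. The genes named are long, from 7312 bp (aak-2) to 26206 bp (daf-16), against a median of 2027 bp for all genes. The part of length was not tested. In daf-16, the insulin pathway factor, 4 intron summits had signals from 40.5 to 119.7, and the weakest had no overlapping peak in replicate 2. Its promoter held a peak in the pooled relaxed list. The gene of the TFEB homologue HLH-30 held 7 optimal summits, all in introns, with signals from 25.05 to 44.7 and ranks from 2655 to 5322. Each overlapped a peak in both replicates, and those at 5460 bp and 12386 bp held TGATAAG. The hlh-30 promoter held a pooled relaxed peak of 21.3, below the optimal list, and hlh-30 was bound when all transcript 5' ends were counted, without replicate 1 or in the pooled relaxed list. The gene aak-2, for a catalytic subunit of AMP-activated kinase, held an intron summit at 983 bp with a signal of 83.3 (rank 842), with 69.7 in replicate 1 and 16.9 in replicate 2, and no promoter peak even in the pooled relaxed list, but was bound when all transcript 5' ends were counted. The lipid phosphatase gene mtm-3 held intron summits at 1047 bp (signal 69.7) and 2630 bp (47.6), and was bound in the pooled relaxed list, without replicate 1, with the wider promoter and by peak overlap. In let-363, the TOR gene, an intron summit lay 16029 bp from the 5' end, with vep-1 the nearest gene, and let-363 was bound with the wider promoter.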
